A study of Homo sapiens with 18 samples.

Results

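The comparison described here asks whether 5-aza-2'-deoxycytidine (5-aza-dC) and trichostatin A (TSA) changed gene expression differently in a Hodgkin lymphoma cell line with and without inducible PAX5. It used 12 of the 18 arrays of the series, 3 in each of 4 groups, and all 19460 probe sets that carry exactly 1 gene symbol, which stand for 18417 genes. L428 is an established line derived from Hodgkin lymphoma, and L428-PAX5 is a derivative in which PAX5 is switched on by mifepristone. All 4 groups received 0.25 nM mifepristone, so no group is free of it. In L428+M and L428-PAX5+M the cells had mifepristone alone for 5 days. In L428+MAT and L428-PAX5+MAT they had mifepristone for 2 days, a partial change of medium in which the fresh part alone carried mifepristone, then 3 µM 5-aza-dC for 3 days, and 640 nM TSA for the last 24 h. In these groups 5-aza-dC, TSA and that change of medium went together and cannot be told apart, so "drugs" below stands for all of them. The medium of L428-PAX5 also held 25 mM HEPES. L428-PAX5 without mifepristone was not analysed here, so PAX5, any other difference of the derived line and its medium cannot be told apart, and "line" below stands for all 3. L425 stands in place of L428 in the titles of all 3 L428-PAX5+MAT samples, while their cell line entry reads L428-PAX5, which was followed. The labels number the samples of each group 1 to 3 without saying whether these were separate cultures, so each p-value rests on a spread that could be purely technical.

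PAX5 is the transcription factor that commits lymphoid progenitors to the B-cell lineage, and Hodgkin and Reed-Sternberg cells, although derived from B cells, have lost much of the B-cell programme. 5-aza-dC is built into DNA, traps DNA methyltransferases and so lowers DNA methylation, and TSA blocks histone deacetylases. Both can switch on genes kept silent by methylated or deacetylated chromatin, among them germ-line genes and endogenous retroviruses, and RNA from the latter is known to set off an interferon response in many tumour lines. Interferon target genes are bound by the factors ISGF3 and IRFs at a short repeat of GAAA, the interferon-stimulated response element.

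The interaction was the drug change in L428-PAX5 minus the drug change in L428, on the log2 scale of the signal. A value of 0 means that line and drugs acted additively on that scale, a positive value that the drugs raised the gene more (or lowered it less) in L428-PAX5, and a negative value the opposite. It was tested with limma over all arrays, two-sided, and passed at a Benjamini-Hochberg adjusted p below 0.05. Errors of an interaction are standard errors from that fit with n = 3 arrays a group. PAX5 itself was read first. Its log2 signal was 8.64, 7.14 and 6.70 in L428+M, then 7.08, 7.14 and 7.28 in L428+MAT, against 12.70, 12.81 and 12.68 in L428-PAX5+M, then 12.84, 12.85 and 12.67 in L428-PAX5+MAT. Both L428-PAX5 groups thus lay above both L428 groups, without overlap. The interaction of PAX5 was 0.39 ± 0.43 (SE) and did not pass (limma, adjusted p = 0.634), so the drugs were not seen to change the PAX5 signal differently in the 2 lines at this precision.

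Of the 19460 probe sets, 3108 (16%) passed the interaction. A positive interaction was found for 1100 (5.65%) and a negative one for 2008 (10.3%), and the 3108 probe sets stand for 2989 genes. The interaction was at least 2-fold for 573 of the positive and 1137 of the negative ones. When replicate number entered as a block, 4953 passed, 1820 positive and 3133 negative, and these held all 3108. The median interaction over all tested probe sets was 0.005. All but 10 of the 3108 had the same sign on the linear scale of the signal as on the log2 scale. Those 10 were all negative on the log2 scale. The interaction had the same sign at all 3 sample numbers for 3098 of the 3108. The tested interaction is the mean of these 3 values, so probe sets chosen for passing tend to share the sign. This count is thus a description and not a replication.

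The 3 numbers did not contribute equally. Among the 3108, the array numbered 2 of L428-PAX5+MAT lay farthest in the direction of the interaction for 2317 (74.5%), and the array numbered 3 lay least far for 1895 (61%). The median interaction of the negative ones was -1.08, -1.27 and -0.85 at numbers 1, 2 and 3, and that of the positive ones 0.95, 1.22 and 0.90. Leaving out the 4 arrays of number 1 left 512 passing, leaving out those of number 2 left 583, and leaving out those of number 3 left 4519. Leaving out any 1 array left between 2269 (without L428-PAX5+MAT number 2) and 4132 (without L428-PAX5+MAT number 3). L428-PAX5+MAT was also the group with the widest spread, with a median SD of 0.227 log2 units against 0.172 to 0.192 in the other 3 groups and a lowest correlation between replicates of 0.9628. The part of this spread in the results was not tested beyond these counts.

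Marker genes are given as a description, since signals of different probe sets cannot be compared as expression levels and do not by themselves settle what the cells are. Among 33 measured genes known from Hodgkin cells, 30 to 32 lay above the median of all values in each of the 4 groups. The counts were 11 to 14 of 25 B-cell genes, 5 to 7 of 25 T and NK cell genes, 6 to 8 of 24 myeloid genes and 8 or 9 of 22 fibroblast and epithelial genes. Over all tested probe sets the median of the group means was 7.191 to 7.235, so most of these also lay above that cut of 6.62 in each group. For 64.9% of them the highest of the 4 group means lay above it. The list counts are to be read beside that.  In such bulk samples fewer cells of a kind and less RNA per cell cannot be told apart.

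The drug change itself was broader in L428-PAX5. In L428, 822 probe sets rose with the drugs (4.22%) and 113 fell (0.581%), whereas in L428-PAX5 2760 rose (14.2%) and 3765 fell (19.3%). The SD of the drug change over all probe sets was 0.357 log2 units in L428 and 0.653 in L428-PAX5. Across the 19460 probe sets the 2 drug changes, which share no array, had a Pearson r of 0.406 and a Spearman rho of 0.304, given as a description across genes, which are not independent. Of the 822 that rose in L428, 446 also rose in L428-PAX5, 76 fell and 300 did not pass. Of the 113 that fell in L428, 72 also fell in L428-PAX5, 5 rose and 36 did not pass.

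**Figure D1:**
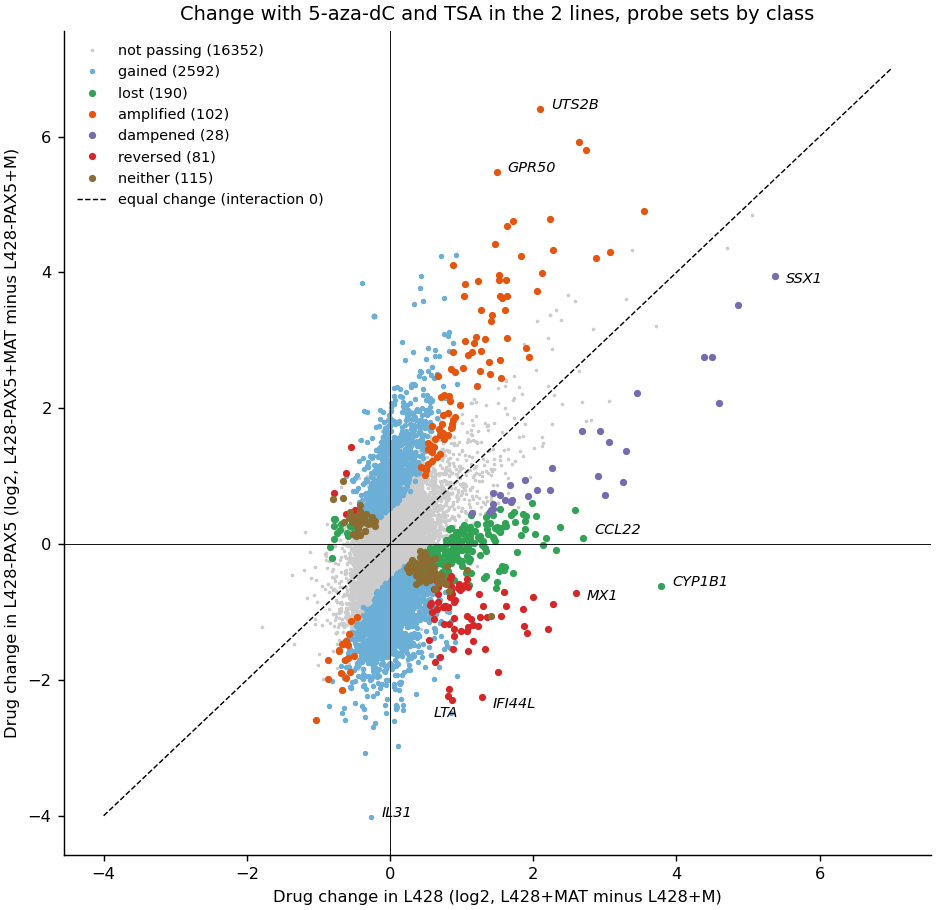
Drug change in L428 (x axis, log2) against drug change in L428-PAX5 (y axis, log2) for the 19460 probe sets, coloured by class, with the number in each class in the key and the dashed line where both changes are equal. Most of the 3108 passing probe sets lie along the vertical axis (951 positive and 1641 negative gained), and the 81 reversed ones lie mainly at the lower right.

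By drug response, the 3108 fell into the following classes. In 951 with a positive and 1641 with a negative interaction the drug change passed in L428-PAX5 and not in L428 (gained). In 84 positive and 18 negative ones it passed in both lines with the same sign and was larger in L428-PAX5 (amplified). In 28 negative ones it passed in both with the same sign and was smaller in L428-PAX5 (dampened). In 176 negative and 14 positive ones it passed in L428 alone (lost). In 76 negative and 5 positive ones it passed in both lines with opposite signs (reversed). In the other 46 positive and 69 negative ones it passed in neither line.

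Set against L428+M, the starting point without inducible PAX5 and without drugs, the signal in L428-PAX5+MAT rose beyond both single differences in 870 (synergistic rise) and fell beyond both in 1215 (synergistic fall). For this the difference of L428-PAX5+MAT from L428+M had to pass and lie beyond both single differences, which could themselves go either way. The synergistic falls thus hold 26 of the 68 genes that rose with the drugs in L428 and fell in L428-PAX5. The other 1023, every passing probe set outside both classes, were called antagonistic. Among these, 439 had been higher in L428-PAX5 without drugs and were lowered by the drugs in that line (line rise undone), and 100 were the mirror image (line fall undone). In 230 a rise with the drugs in L428 was blunted in L428-PAX5, and in 18 a fall was. Line and drug differences share the groups L428+M and L428-PAX5+M, so these counts carry shared arrays. Without drugs 1844 probe sets were higher in L428-PAX5 than in L428 (9.48%) and 1257 lower (6.46%). With drugs 2790 were higher (14.3%) and 3419 lower (17.6%). Of the 1844, 631 had a negative interaction and 49 a positive one, and of the 1257, 182 had a positive and 150 a negative one. The sign of the line difference passed on opposite sides without and with drugs in 191 probe sets, 144 with a negative and 47 with a positive interaction.

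With the block the classes grew by more than 1.5 times in most cases: 1465 gained positive, 2470 gained negative, 147 amplified positive, 80 amplified negative, 52 dampened negative, 56 lost positive, 158 reversed negative, 20 reversed positive, 131 and 118 in neither line, 1327 with a synergistic rise, 1929 with a synergistic fall and 1697 antagonistic. The other subclasses came to 727 for line rise undone, 194 for line fall undone, 371 for drug rise blunted, 72 for drug fall blunted, and 303 and 103 for line reversal.

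**Figure D2:**
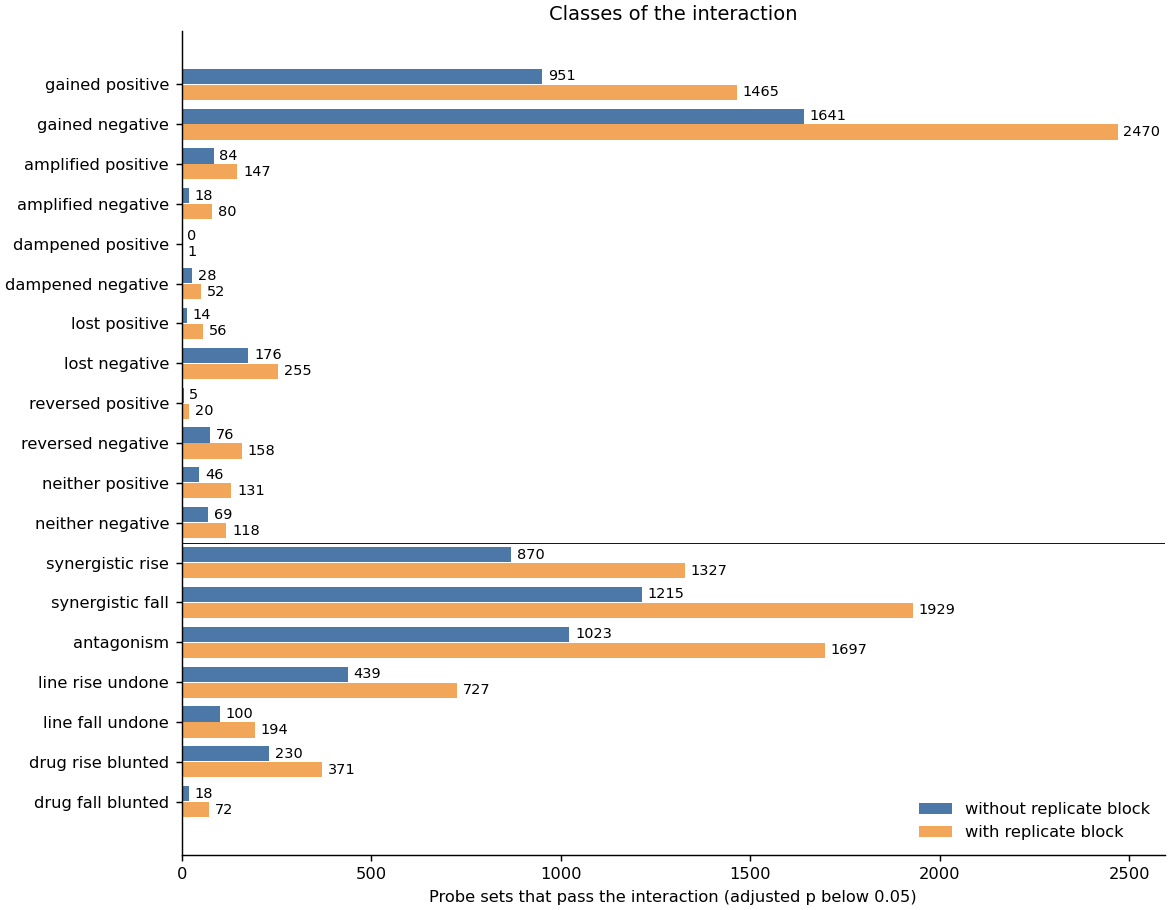
Number of probe sets in each class of the interaction (x axis) in the fits lacking and holding the number block; classes by drug response stand above the line and classes by combined difference below it. Gained negative is the most frequent class by drug response in both fits (1641 and 2470), and synergistic fall the most frequent combined class (1215 and 1929).

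Among the reversals of sign, 76 probe sets rose with the drugs in L428 and fell in L428-PAX5, and 5 did the opposite. Far more probe sets rose than fell in L428 to begin with (822 against 113). In L428-PAX5 more fell than rose (19.3% against 14.2%), so the 76 and 5 are not a comparison of rates. The 76 probe sets stand for 68 genes, of which 10 belong to a list of 35 measured interferon response genes. The rise in L428 had a median of 0.93 (0.55 to 2.59) and the fall in L428-PAX5 a median of -0.93 (-2.25 to -0.47). Promoter windows of these genes are printed because the shared response element is what the interferon genes have in common. Of the 68 genes, 50 matched the RefSeq promoter table (GRCh38.p14) with 75 windows of 300 bases, 250 before and 50 after a start. The element searched was GAAANNGAAA on either strand, and also the form with 1 base between its GAAA repeats, GAAANGAAA. The 2 forms can overlap. GAAANNGAAA was present in 26.7% of the 75 windows and in 3.11% of the 20109 windows of all 14239 tested genes that matched. Either form was present in 33.3% and in 5.63%. Without the genes of the interferon list the share with GAAANNGAAA was 21% of 62 windows. That list does not hold every interferon target. TRIM22, which is interferon-induced, and PSMB9 and TAP1, of antigen processing under interferon control, are reversed genes outside it. The 10 listed genes are thus not all interferon targets among the 68, and the 62 windows cannot be taken as free of them. The share was 11.7% in the lost negative class, 3.95% in the gained negative, 2.18% in the gained positive and 6.67% in the amplified positive class. The gamma-activated site, TTCNNNGAA, was present in 18.7% of the reversed windows and 6.92% of all. A match describes these letters and is not evidence of binding.

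The 250 bases before a start are given 5' to 3' for 4 of the reversed interferon genes, with every match of either form in capitals. MX1 has 3 windows in the table and PARP9 2, and 1 of each is shown, chosen for its matches. The other PARP9 window held 0 matches and the other 2 of MX1 1 each.
IFI44L chr1:78620198-78620447 (plus strand): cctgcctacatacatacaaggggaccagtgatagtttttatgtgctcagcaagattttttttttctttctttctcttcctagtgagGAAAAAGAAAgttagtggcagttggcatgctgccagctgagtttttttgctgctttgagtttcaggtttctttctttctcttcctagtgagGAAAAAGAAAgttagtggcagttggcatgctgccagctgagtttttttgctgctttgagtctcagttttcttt
MX1 chr21:41425989-41426238 (plus strand): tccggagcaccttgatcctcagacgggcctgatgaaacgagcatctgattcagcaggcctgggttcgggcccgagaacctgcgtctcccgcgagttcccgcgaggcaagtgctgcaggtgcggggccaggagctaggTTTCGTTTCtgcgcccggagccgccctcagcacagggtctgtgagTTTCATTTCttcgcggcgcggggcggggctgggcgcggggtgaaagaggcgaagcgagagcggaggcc
OAS1 chr12:112906712-112906961 (plus strand): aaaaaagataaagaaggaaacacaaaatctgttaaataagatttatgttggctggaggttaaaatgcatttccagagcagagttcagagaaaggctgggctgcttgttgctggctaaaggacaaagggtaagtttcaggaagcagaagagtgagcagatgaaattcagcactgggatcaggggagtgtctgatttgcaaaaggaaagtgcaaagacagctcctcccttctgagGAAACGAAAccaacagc
PARP9 chr3:122564301-122564550 (minus strand): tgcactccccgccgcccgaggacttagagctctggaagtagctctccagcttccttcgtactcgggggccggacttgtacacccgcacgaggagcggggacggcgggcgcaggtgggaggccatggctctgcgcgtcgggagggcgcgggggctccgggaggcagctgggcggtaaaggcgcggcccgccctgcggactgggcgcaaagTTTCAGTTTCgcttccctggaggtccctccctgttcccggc

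IFI44L held GAAANNGAAA at 2 places, and the PARP9 window held 1 match that began 41 bases before the start. In MX1 and OAS1 the matches in the windows shown had 1 base between the repeats, a form added to the search after sequences had been seen. In MX1 and PARP9 they lay on the opposite strand and so read TTTC. OAS2 and TRIM22 are named only.

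IFI44L, an interferon-induced gene of antiviral defence, had log2 signals of 10.18, 10.41 and 10.70 in L428+M, then 11.47, 11.80 and 11.88 in L428+MAT. In L428-PAX5 they were 9.50, 9.61 and 9.69 without and 6.98, 6.54 and 8.52 with the drugs. No 2 of the 4 groups overlapped, with L428+MAT highest and L428-PAX5+MAT lowest. The drugs raised IFI44L 2.44-fold in L428 (limma, adjusted p = 0.0365) and lowered it 4.77-fold in L428-PAX5 (adjusted p = 6.4e-05), an interaction of -3.54 ± 0.49 (SE, adjusted p = 0.000144).

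MX1, a dynamin-like GTPase that blocks viruses, had signals of 8.46, 8.50 and 8.11 in L428+M, 11.04, 11.07 and 10.72 in L428+MAT, 7.83, 7.71 and 7.79 in L428-PAX5+M, then 7.30, 6.42 and 7.45 in L428-PAX5+MAT. The 3 arrays of L428+MAT stood more than 2 log2 units above every other array, and L428-PAX5+MAT lay below all. Its interaction was -3.31 ± 0.30 (limma, adjusted p = 2.71e-06). OAS2, which makes the 2-5A messenger that activates RNase L, had signals of 9.08, 8.93 and 8.60 in L428+M, then 10.55, 10.30 and 10.30 in L428+MAT. In L428-PAX5 it had 8.85, 8.62 and 8.72 without and 6.62, 6.43 and 7.50 with the drugs. The 2 lines overlapped without drugs (line difference -0.14, adjusted p = 0.746) and were far apart with them, and the interaction was -3.39 ± 0.29 (limma, adjusted p = 1.3e-06). The drug change of OAS1 was 2.00 in L428 and -0.78 in L428-PAX5, and that of PARP9, a macrodomain protein that acts with the ubiquitin ligase DTX3L, was 1.87 and -1.20. DTX3L itself changed by 1.32 and -1.54, and TRIM22, an interferon-induced ubiquitin ligase, by 2.28 and -0.88.

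**Figure D3:**
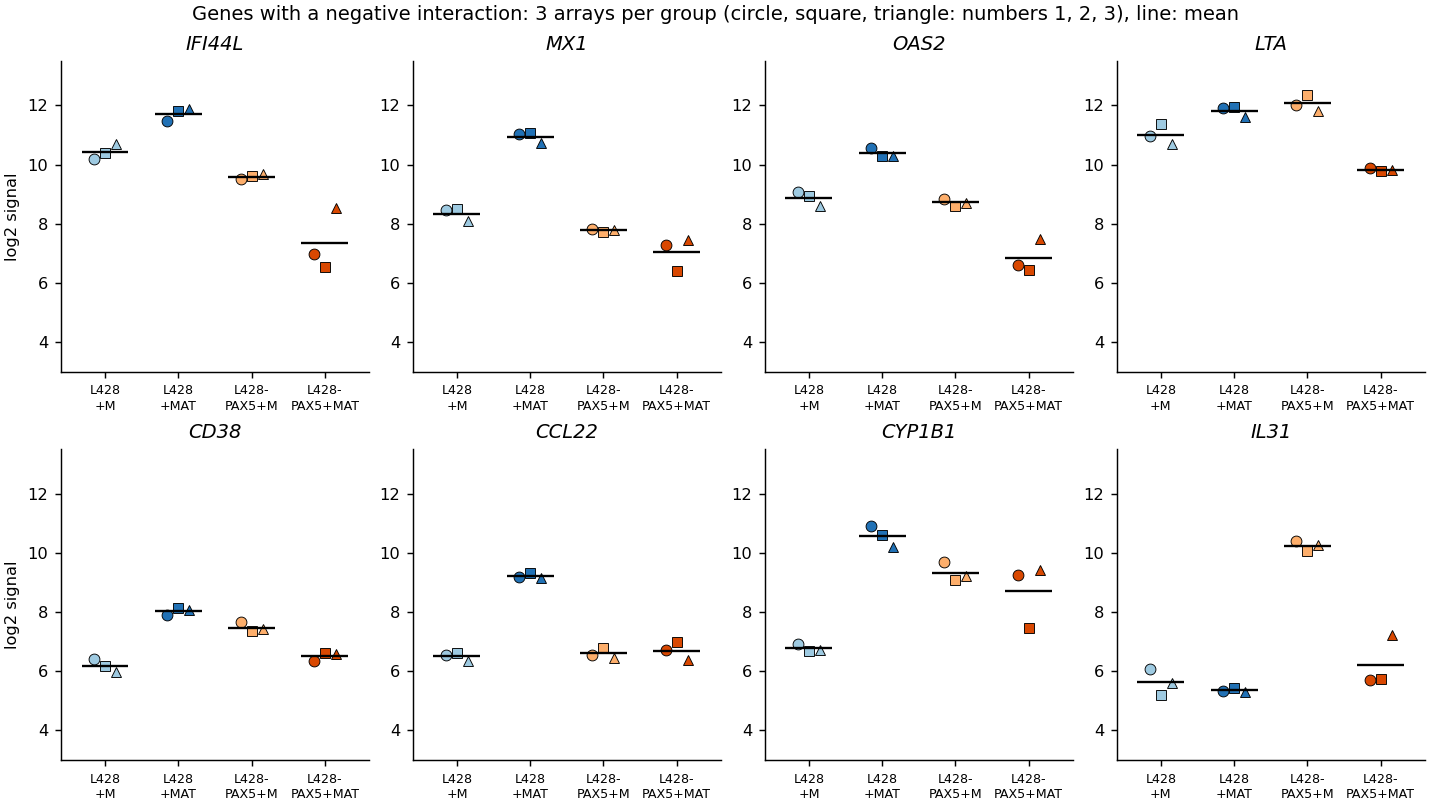
Log2 signal (y axis) of 8 genes with a negative interaction in the 4 groups (x axis); circles, squares and triangles are the arrays numbered 1, 2 and 3 and lines are group means. IFI44L, MX1, OAS2, LTA and CD38 are highest or near highest in L428+MAT and fall with the drugs in L428-PAX5, CCL22 is high in L428+MAT alone, and IL31 is high in L428-PAX5+M alone.

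Of the 35 measured genes of the interferon response, 26 passed with a negative and 0 with a positive interaction, with a median of -1.80 beside 0.007 over the brightest probe set of every gene. Over all probe sets 10.3% had a negative and 5.65% a positive interaction, which is the background for every list count below. That background is too low for negative calls in lists of bright genes. Of the negative calls 95.7% had a highest group mean above 6.62, and of the positive ones 79.5%, beside 64.9% of all tested. With dim probe sets left out the median interaction was -0.122. No background by brightness was set beside each list. In L428, 26 of the 35 rose with the drugs and 0 fell (median 1.12). In L428-PAX5, 7 rose and 16 fell (median -0.50). Without drugs 4 were higher and 6 lower in L428-PAX5 than in L428, and with drugs 0 were higher and 32 lower. The same shares of all probe sets were 9.48% and 6.46% without drugs, and 14.3% and 17.6% with them. For the drug change, 4.22% of all rose and 0.581% fell in L428, and 14.2% rose and 19.3% fell in L428-PAX5. By class, 10 of the 26 were reversed. In 9 the rise of L428 was lost, for example OAS3, with 2.14 in L428 and -0.01 in L428-PAX5, and IFI44, with 1.49 and -0.65. The 9 that did not pass, named after their values were seen, were OASL, IFIT5, IRF7, IFI6, HERC5, RIGI, IFIT2, ISG15 and SAMD9, with interactions between 0.56 and -0.94. Among them the RNA sensor RIGI had drug changes of 1.86 and 1.59, and OASL 0.89 and 1.46 and both rose in both lines. OAS1, TAP1, TAP2, B2M and CALR were likewise named after their values were seen. Any 1 array could be left out with 26 or 27 negative calls remaining, and without the arrays of number 1, 2 or 3 the list had 18, 21 and 27.

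Antigen processing for HLA class I, which is under interferon control, gave 9 negative and 0 positive interactions among 13 measured genes (median -1.17). PSMB9, an immunoproteasome subunit, had drug changes of 0.81 in L428 and -0.93 in L428-PAX5 and an interaction of -1.74 ± 0.23 (limma, adjusted p = 9.34e-05). The peptide transporter genes TAP1 and TAP2 were reversed as well, with interactions of -1.69 and -1.62. ERAP1, a peptidase that trims peptides in the endoplasmic reticulum, had a drug change of 0.27 in L428, which did not pass, and of -1.67 in L428-PAX5. B2M, the light chain of class I, had an interaction of -0.25 and CALR of 0.03, and neither passed. The count of negative calls was 6, 2 and 11 without the arrays of number 1, 2 or 3. Among 16 genes of HLA class II, 3 passed with a negative and 1 with a positive interaction (median -0.42). The positive one was LGMN, a lysosomal protease, at 2.03 ± 0.25, and the most negative one was CTSS, another lysosomal protease, at -2.50 ± 0.38. The block gave 6 negative calls in this list, and leaving out L428-PAX5+MAT number 3 gave 5. CIITA, the master activator of class II, had an interaction of -0.62 ± 0.26 that did not pass (limma, adjusted p = 0.123).

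Genes known from Hodgkin cells formed a further group, with 14 negative and 1 positive interaction among 33 (median -0.86). CCL22, a chemokine for regulatory T cells, had signals of 6.56, 6.63 and 6.33 in L428+M, then 9.18, 9.30 and 9.14 in L428+MAT. In L428-PAX5 it had 6.56, 6.78 and 6.46 without and 6.72, 6.98 and 6.37 with the drugs. L428+MAT stood alone and the other 3 groups overlapped, which is a rise of 6.49-fold in L428 and a loss of it in L428-PAX5, with an interaction of -2.61 ± 0.24 (limma, adjusted p = 3.14e-06). The related chemokine CCL17 behaved otherwise: it had 10.81, 10.35 and 10.44 in L428+M, 10.73, 10.49 and 10.47 in L428+MAT, 11.26, 11.12 and 11.38 in L428-PAX5+M, then 9.12, 9.56 and 9.77 in L428-PAX5+MAT. It did not pass for a change in L428, and in L428-PAX5 it fell by 1.78 (interaction -1.81 ± 0.24, limma, adjusted p = 9.55e-05). STAT5A, a mediator of cytokine signals, was reversed (0.69 in L428, -1.66 in L428-PAX5). BATF3, a transcription factor of the AP-1 family, and TNFRSF8, which encodes CD30, fell in L428-PAX5 by 1.65 and by 1.23, with interactions of -1.91 and -1.38. MSC, which encodes a repressor of the B-cell factor E2A, had an interaction of -1.36 ± 0.34 and a fall of 1.45 in L428-PAX5. The exception was LGALS1, which encodes galectin-1, with an interaction of 1.06 ± 0.22. TNFRSF8, MSC and LGALS1 each lost their call without number 1 or 2. ID2, an inhibitor of E2A, had 0.92 ± 0.37 and passed with the block (adjusted p = 0.107 without and 0.00374 with it) and when L428-PAX5+MAT number 3 was left out (adjusted p = 0.0434). The count of negative calls for the group was 4, 4 and 16 without number 1, 2 or 3, and 19 with the block, which also gave 4 positive ones, as did leaving out L428-PAX5+MAT number 3.

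Targets of NF-kB, which is active in Hodgkin cells, gave 11 negative and 1 positive interaction among 29 (median -0.79), and 5, 5 and 14 negative ones without the arrays of number 1, 2 or 3. LTA, which encodes lymphotoxin alpha, was among the largest reversals. Its brightest probe set had 10.97, 11.37 and 10.69 in L428+M, 11.92, 11.94 and 11.60 in L428+MAT, 12.01, 12.37 and 11.81 in L428-PAX5+M, then 9.90, 9.78 and 9.82 in L428-PAX5+MAT. Drugs alone and line alone each raised LTA, by 0.81 and 1.05, whereas line and drugs together lay below every other array, for an interaction of -3.04 ± 0.25 (limma, adjusted p = 1.08e-06). BCL2L1, an anti-apoptotic gene, had an interaction of -2.22 ± 0.35 and fell by 1.44 in L428-PAX5. SOD2, mitochondrial superoxide dismutase, was the exception, at 1.25 ± 0.27, and lost its call without number 1 or 2.

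IL31, which encodes a T-cell cytokine of itch, had log2 signals of 6.06, 5.20 and 5.60 in L428+M, then 5.32, 5.43 and 5.31 in L428+MAT. In L428-PAX5+M it had 10.41, 10.05 and 10.25, and in L428-PAX5+MAT 5.70, 5.72 and 7.23. The rise of 24.6-fold in L428-PAX5 (limma, adjusted p = 6.06e-09) was thus undone 16.3-fold by the drugs, and L428-PAX5+MAT overlapped L428+M. The interaction was -3.76 ± 0.42 (limma, adjusted p = 2.51e-05). Of 38 cytokine and chemokine genes, 9 passed with a negative and 1 with a positive interaction (4, 5 and 10 negative without number 1, 2 or 3). Of the 9, 6 were synergistic falls and 3 antagonistic. With the block 5 were positive, and without L428+M number 2 there were 4. The positive one was CCL20, a chemokine for dendritic and T helper cells. CCL20 had 4.93, 4.92 and 5.31 in L428+M, 6.80, 6.36 and 6.87 in L428+MAT, 4.97, 5.06 and 5.02 in L428-PAX5+M, then 8.33, 9.17 and 8.52 in L428-PAX5+MAT. The drugs raised it in both lines and more so in L428-PAX5 (interaction 2.03 ± 0.31, limma, adjusted p = 0.00032).

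CYP1B1, a cytochrome P450 that oxidises oestrogens and aryl hydrocarbons, had the most negative interaction of the 19460 probe sets, -4.41 ± 0.51 (limma, adjusted p = 3.49e-05). Its signals were 6.93, 6.69 and 6.71 in L428+M, 10.89, 10.61 and 10.20 in L428+MAT, 9.70, 9.09 and 9.21 in L428-PAX5+M, then 9.24, 7.47 and 9.43 in L428-PAX5+MAT. Line alone raised it 5.88-fold and drugs alone 13.8-fold. The drug change in L428-PAX5 was -0.62 and did not pass (adjusted p = 0.212), with the array numbered 2 below the other 2 arrays. AVPR1A, a vasopressin receptor, had 8.69, 7.92 and 7.99, then 10.85, 10.26 and 10.13 in L428 and 11.11, 10.93 and 10.64, then 9.89, 8.98 and 10.03 in L428-PAX5, without and with drugs in each. It was raised by line and by drugs and lowered when they met (interaction -3.47 ± 0.37, limma, adjusted p = 1.52e-05). CD38, an ectoenzyme of germinal-centre and plasma cells, followed the same course with drug changes of 1.86 and -0.96 and an interaction of -2.82 ± 0.19 (limma, adjusted p = 3.57e-07). IDO1, which degrades tryptophan, had 1.91 and -1.31 and an interaction of -3.22 ± 0.63. APOL6, an apolipoprotein L gene, had 0.85, which did not pass, and -2.49, with an interaction of -3.34 ± 0.46. NDST4, a heparan sulphate sulphotransferase, had 0.11, which did not pass, and -2.97, with an interaction of -3.08 ± 0.51.

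The largest synergistic rises were those of UTS2B and GPR50, apart from REXO1L1P. UTS2B, which encodes a urotensin II-related peptide, had 3.85, 3.90 and 4.37 in L428+M, then 5.81, 6.10 and 6.50 in L428+MAT, 4.08, 3.80 and 4.16 in L428-PAX5+M, then 10.05, 10.99 and 10.20 in L428-PAX5+MAT. Line alone made no difference that passed (-0.03, limma, adjusted p = 0.965). The drugs raised UTS2B 4.27-fold in L428 and 84.5-fold in L428-PAX5, and the interaction of 4.31 ± 0.35 was the largest (limma, adjusted p = 1.08e-06). GPR50, an orphan receptor related to the melatonin receptors, had 5.47, 5.54 and 5.72, then 7.05, 7.15 and 7.01 in L428 and 5.56, 5.29 and 5.23, then 10.59, 11.65 and 10.28 in L428-PAX5, without and with drugs in each. Again the 2 lines overlapped without drugs, and the interaction was 3.99 ± 0.33 (limma, adjusted p = 1.08e-06). Signals near 4 or 5 lie at the low end of the array, so a fold from there may understate the change.

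As drugs that act on DNA methylation were used, CpG pairs were counted in the same promoter windows. The median was 23.0 per window for the synergistic rises, 24.0 for the synergistic falls, 18.5 for the amplified positive class, 17.0 for the reversed negative class and 21 over all tested genes, and methylation was not measured in these samples. The bases before the start of the 2 leading genes are shown with each CpG in capitals, 7 in UTS2B and 6 in GPR50.
UTS2B chr3:191330527-191330776 (minus strand): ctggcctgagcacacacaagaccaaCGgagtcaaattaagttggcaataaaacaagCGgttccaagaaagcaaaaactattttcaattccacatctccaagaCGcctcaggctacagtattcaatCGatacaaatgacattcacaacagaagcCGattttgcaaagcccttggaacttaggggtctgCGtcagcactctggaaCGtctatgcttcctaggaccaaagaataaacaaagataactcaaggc
GPR50 chrX:151176334-151176583 (plus strand): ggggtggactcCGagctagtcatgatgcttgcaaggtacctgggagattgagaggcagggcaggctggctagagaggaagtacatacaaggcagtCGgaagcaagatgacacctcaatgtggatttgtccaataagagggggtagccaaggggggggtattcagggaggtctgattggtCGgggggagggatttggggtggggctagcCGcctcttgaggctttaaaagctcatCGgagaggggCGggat

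Further leading synergistic rises were SNAI2, a repressor of epithelial genes, with drug changes of 0.71 (adjusted p = 0.245) in L428 and 4.24 in L428-PAX5, CRISPLD2, which encodes a secreted glycoprotein, with 0.43 (not passing) and 3.95, and the zinc finger genes ZNF280A, with 0.41 (not passing) and 3.77, and ZSCAN5B, with 0.92 (not passing) and 4.26. In all 4 of them L428-PAX5+MAT did not overlap any other group. Genes named for the size of their interaction, here and above, tend to have well separated groups by that choice. Their lack of overlap is thus a description only. REXO1L1P had 4.23 ± 0.75 and 3.58 ± 0.67 in its probe sets, 5 of which gave identical values. It belongs to a family of near-identical copies, so this is uncertain as to the copy. ENPP2, which encodes autotaxin, reversed the order of the lines. It had 8.65, 8.41 and 8.77 in L428+M, 10.27, 10.07 and 10.38 in L428+MAT, 7.52, 6.64 and 7.71 in L428-PAX5+M, then 12.01, 12.28 and 11.62 in L428-PAX5+MAT, with an interaction of 3.05 ± 0.32 (limma, adjusted p = 1.43e-05). CCNA1, a germ-line cyclin, had drug changes of 2.23 and 4.79. CCNE2, cyclin E2, had 8.30, 8.09 and 8.46, then 8.01, 7.67 and 8.09 in L428 and 7.87, 7.78 and 7.36, then 9.40, 10.06 and 9.42 in L428-PAX5, without and with drugs in each, with an interaction of 2.32 ± 0.26 (limma, adjusted p = 2.98e-05).

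**Figure D4:**
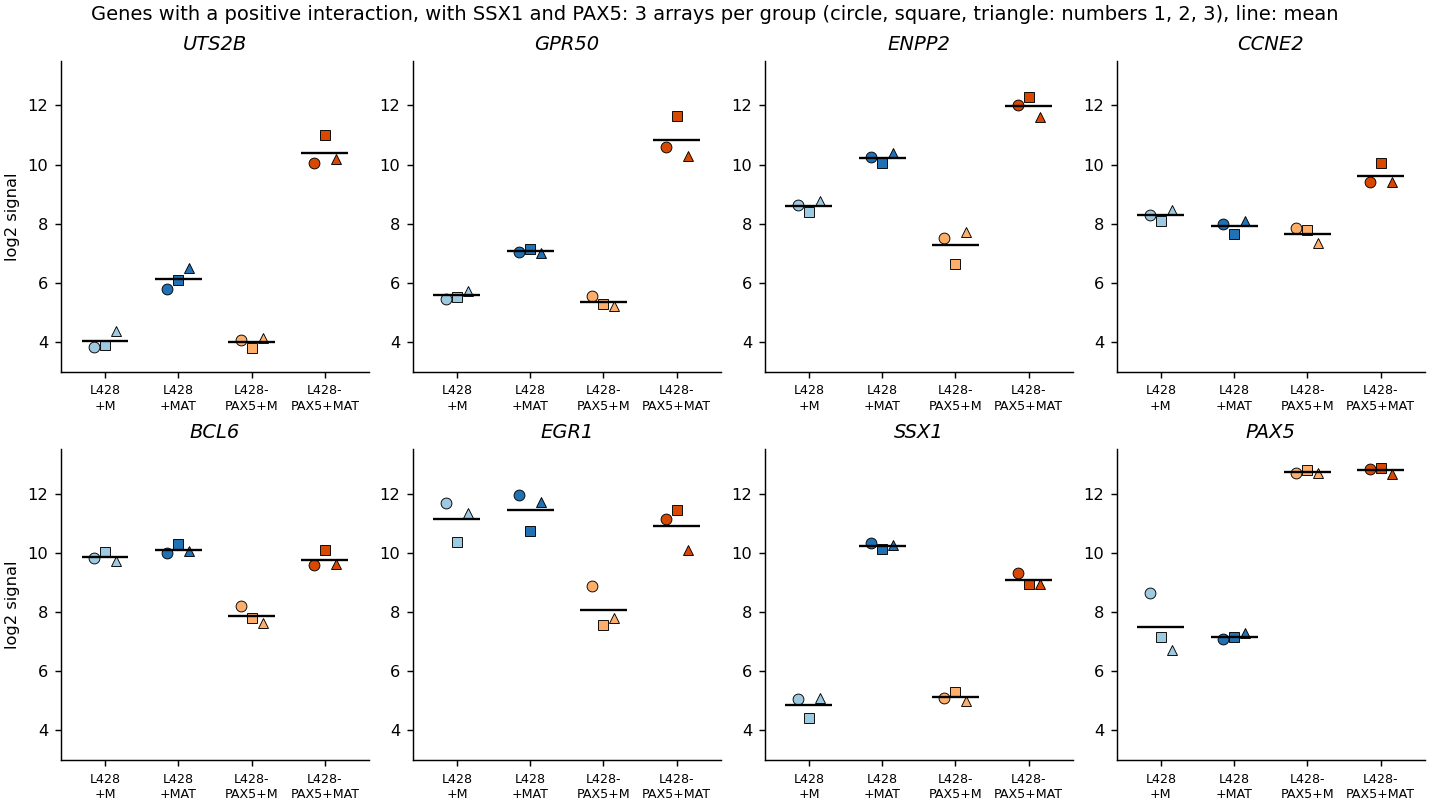
Log2 signal (y axis) of 6 genes with a positive interaction, of SSX1 and of PAX5 in the 4 groups (x axis); circles, squares and triangles are the arrays numbered 1, 2 and 3 and lines are group means. UTS2B, GPR50, ENPP2 and CCNE2 are highest in L428-PAX5+MAT, BCL6 and EGR1 are low in L428-PAX5+M alone, and SSX1 rises with the drugs in both lines, less so in L428-PAX5.

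Germ-line genes are classic targets of demethylation. Over all probe sets 4.22% rose with the drugs in L428 and 14.2% in L428-PAX5, and 5.65% had a positive and 10.3% a negative interaction. The interaction counts of the meiosis list lay near these shares. Of 19 cancer-testis genes, 8 rose with the drugs in L428 and 10 in L428-PAX5, and the interaction passed for 3, all negative (median -0.20). SSX1, an X-linked gene of that family, had 5.06, 4.41 and 5.10 in L428+M, then 10.33, 10.13 and 10.25 in L428+MAT, 5.08, 5.31 and 4.98 in L428-PAX5+M, then 9.32, 8.95 and 8.95 in L428-PAX5+MAT. It rose 41.7-fold in L428 and 15.5-fold in L428-PAX5, a dampened response (interaction -1.43 ± 0.25, limma, adjusted p = 0.000995). SSX3, a near relative whose probes may share sequence with SSX1, had 4.85 and 3.52. Of 37 genes of meiosis and the piRNA pathway, 15 rose in L428 and 20 in L428-PAX5, with 3 positive and 4 negative interactions (median -0.10). CCNA1 was among the positive ones, while HORMAD1, a protein of the meiotic chromosome axis, with 4.59 and 2.08, and DAZL, an RNA-binding protein of germ cells, with 4.38 and 2.76, were dampened. Without the arrays of number 1, 2 or 3 the negative calls of that list were 0, 1 and 6. Neuronal genes were 4 positive and 1 negative among 29 (median 0.21), led by NEFM, a neurofilament subunit, with a drug change of 0.02 in L428 and 1.95 in L428-PAX5. This list had 0, 0 and 7 positive calls without number 1, 2 or 3, and NEFM lost its call without number 1 or 2. Of 62 KRAB zinc finger genes, which silence retroelements, 6 were positive and 4 negative, with 11 and 6 with the block. Without number 1, 2 or 3 they came to 2, 2 and 7 positive and 0, 0 and 6 negative calls, and leaving out 1 array gave 3 positive at the lowest (without L428+MAT number 1 or L428-PAX5+M number 2) and 2 negative (without L428+M number 2 or L428-PAX5+M number 1). In the meiosis list the block gave 8 negative calls, and leaving out L428+M number 2 or L428-PAX5+MAT number 3 gave 2 or 7. The latter array also moved the positive calls of the neuronal list to 7.

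The line fall undone by the drugs was seen in BCL6, the repressor that directs the germinal-centre programme. It had 9.82, 10.04 and 9.73 in L428+M, then 10.00, 10.28 and 10.05 in L428+MAT, 8.20, 7.79 and 7.63 in L428-PAX5+M, then 9.58, 10.11 and 9.61 in L428-PAX5+MAT. L428-PAX5+M stood below the other 3 groups, which overlapped, and the interaction was 1.65 ± 0.23 (limma, adjusted p = 0.00016). EGR1, an immediate-early factor, showed the same course with a line difference of -3.06 without drugs and a drug change of 2.83 in L428-PAX5 (interaction 2.51 ± 0.56, limma, adjusted p = 0.00542). SLC2A3, a glucose transporter, and ZSWIM6, a zinc finger gene, had interactions of 1.83 ± 0.31 and 1.81 ± 0.22. The 5 genes that fell in L428 and rose in L428-PAX5 were FBXL20, MAP3K13, H2AC15, CCNG2 and SATB1, with interactions of up to 1.97, in FBXL20.

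Among 25 genes of B-cell identity and receptor signalling, 1 was positive and 8 negative (median -0.06), beside 5.65% and 10.3% of all probe sets, and 10 were negative with the block. CD79A, CD79B, CD22, MS4A1 and BLNK, which build or transmit the B-cell receptor signal or encode CD20, had interactions of 0.29 ± 0.23, 0.03 ± 0.22, 0.07 ± 0.23, 0.06 ± 0.35 and 0.29 ± 0.26, none of which passed. In each of these 5 genes the 4 group means lay within 1 log2 unit of each other. POU2AF1, a B-cell coactivator, had -0.13 ± 0.24, and PRDM1, the plasma cell regulator, 0.21 ± 0.23. The negative calls were 2, 5 and 9 without number 1, 2 or 3. Those that passed included CR2 and FCER2, which are also among genes reported as activated by PAX5. CR2, the complement receptor CD21, had 5.25, 4.79 and 4.30 in L428+M, 7.32, 6.53 and 6.55 in L428+MAT, 6.77, 6.39 and 6.60 in L428-PAX5+M, then 6.81, 6.58 and 6.79 in L428-PAX5+MAT. Line and drugs each raised CR2, and together they raised it no further (interaction -1.87 ± 0.32, limma, adjusted p = 0.000762). FCER2, which encodes CD23, rose in L428 by 1.60 and had -0.34 in L428-PAX5, which did not pass. IKZF1, a lymphoid transcription factor, had 11.11, 11.11 and 10.80, then 11.20, 11.02 and 11.07 in L428 and 11.47, 11.53 and 11.58, then 9.17, 8.29 and 10.01 in L428-PAX5, without and with drugs in each (interaction -2.46 ± 0.38, limma, adjusted p = 0.000397). XBP1, which drives the secretory programme, fell by 1.33 in L428-PAX5 (interaction -1.44 ± 0.25). IRF4 had -0.63 ± 0.23 and passed with the block (adjusted p = 0.0646 without and 0.027 with it) and when L428-PAX5+MAT number 1 was left out (adjusted p = 0.04).

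Genes of growth were read as 2 lists. Of 27 genes of MYC and ribosome biogenesis, 11 had a negative and 0 a positive interaction (median -0.61). In L428, 1 rose and 0 fell with the drugs, and in L428-PAX5 18 fell and 0 rose. Without drugs 15 had been higher in L428-PAX5 and 0 lower, beside 9.48% and 6.46% of all probe sets. With the drugs 4.22% of all rose and 0.581% fell in L428, and 14.2% rose and 19.3% fell in L428-PAX5. RRS1, a ribosome assembly factor, had 9.75, 9.50 and 9.03, then 10.13, 9.35 and 9.37 in L428 and 11.57, 11.41 and 11.32, then 10.25, 9.46 and 10.14 in L428-PAX5, without and with drugs in each (interaction -1.67 ± 0.32, limma, adjusted p = 0.00203). MYC itself had -0.60 ± 0.21 and passed with the block (adjusted p = 0.0612 without and 0.0355 with it) and when L428-PAX5+M number 3 was left out (adjusted p = 0.0467). Of 48 genes of DNA replication and mitosis, 1 rose and 0 fell with the drugs in L428, and 4 rose and 14 fell in L428-PAX5, where 14.2% and 19.3% of all probe sets did. The interaction was negative in 9 of the 48, such as TYMS, thymidylate synthase, at -1.51 ± 0.26, and positive in 1, CCNE2. CDKN1A, the p21 inhibitor of cyclin-dependent kinases, rose in both lines, by 1.14 and 0.84, and its interaction of -0.30 ± 0.35 did not pass (limma, adjusted p = 0.652). Cell adhesion and migration gave 11 negative and 0 positive interactions among 31, led by GPR183, the receptor that guides B cells in lymph nodes, at -2.73 ± 0.54. The negative calls of these 3 lists, in the order given, were 1, 2 and 2 without the arrays of number 1, and 3, 2 and 3 without those of number 2. Without those of number 3 they were 13, 12 and 11. For adhesion they were 7 without L428+M number 2, L428+MAT number 1 or L428-PAX5+M number 1.

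Among other regulators, B-cell transcription factors gave 1 positive and 3 negative interactions of 16, with 8 negative with the block, and germinal-centre genes gave 3 and 2 of 15. Genes reported as activated by PAX5 gave 0 and 2 of 16, with 7 negative with the block, genes reported as repressed by PAX5 0 and 4 of 17, and plasma cell genes 1 and 2 of 19. The DNA methylation machinery gave 0 and 3 of 19, histone deacetylases and acetyltransferases 1 and 5 of 26, Polycomb 0 and 5 of 24, and variant and linker histones 2 and 1 of 15. In stress and death lists there were 1 and 5 of 28 p53 targets, 2 and 4 of 27 apoptosis regulators, 0 and 7 of 28 genes of the unfolded protein and ATF4 response, and 0 and 2 of 18 heat shock genes. In metabolism there were 0 and 5 of 25 genes of cholesterol and fatty acid synthesis, 0 and 2 of 32 of mitochondrial respiration, 0 and 1 of 29 ribosomal proteins and 0 and 3 of 32 splicing genes. Protocadherins and cadherins gave 3 and 4 of 30, and targets of the glucocorticoid and progesterone receptors, to which mifepristone binds, 2 and 1 of 16. Among other cell types, myeloid genes gave 1 and 1 of 24, and fibroblast and epithelial genes 2 and 2 of 22. Of the 25 T and NK cell genes 0 passed in limma, 2 had an unadjusted p below 0.05, and 1 passed with the block. The shares over all probe sets, 5.65% positive and 10.3% negative, are the background for all of these.

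Most of these small counts moved with the fit. With the block the negative calls came to 8 in mitochondrial respiration, 10 in splicing, 8 in cholesterol and fatty acid synthesis, 8 in Polycomb, 7 among apoptosis regulators, 5 in the DNA methylation machinery and 4 among heat shock genes. The positive calls came to 5 among p53 targets, 5 among protocadherins and cadherins and 5 among receptor targets. Fibroblast and epithelial genes had 6 positive and 5 negative calls. Without the arrays of number 1 or of number 2, each of the lists in the preceding paragraph had at most 2 negative and 1 positive call. Leaving out L428-PAX5+MAT number 3 alone gave 8 negative calls in Polycomb, 6 in splicing, 9 among apoptosis regulators, 6 among B-cell transcription factors and 6 among genes reported as activated by PAX5. Leaving out L428-PAX5+MAT number 2 gave 1 in Polycomb, 1 in splicing, 2 in cholesterol and fatty acid synthesis and 2 among p53 targets.

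**Figure D5:**
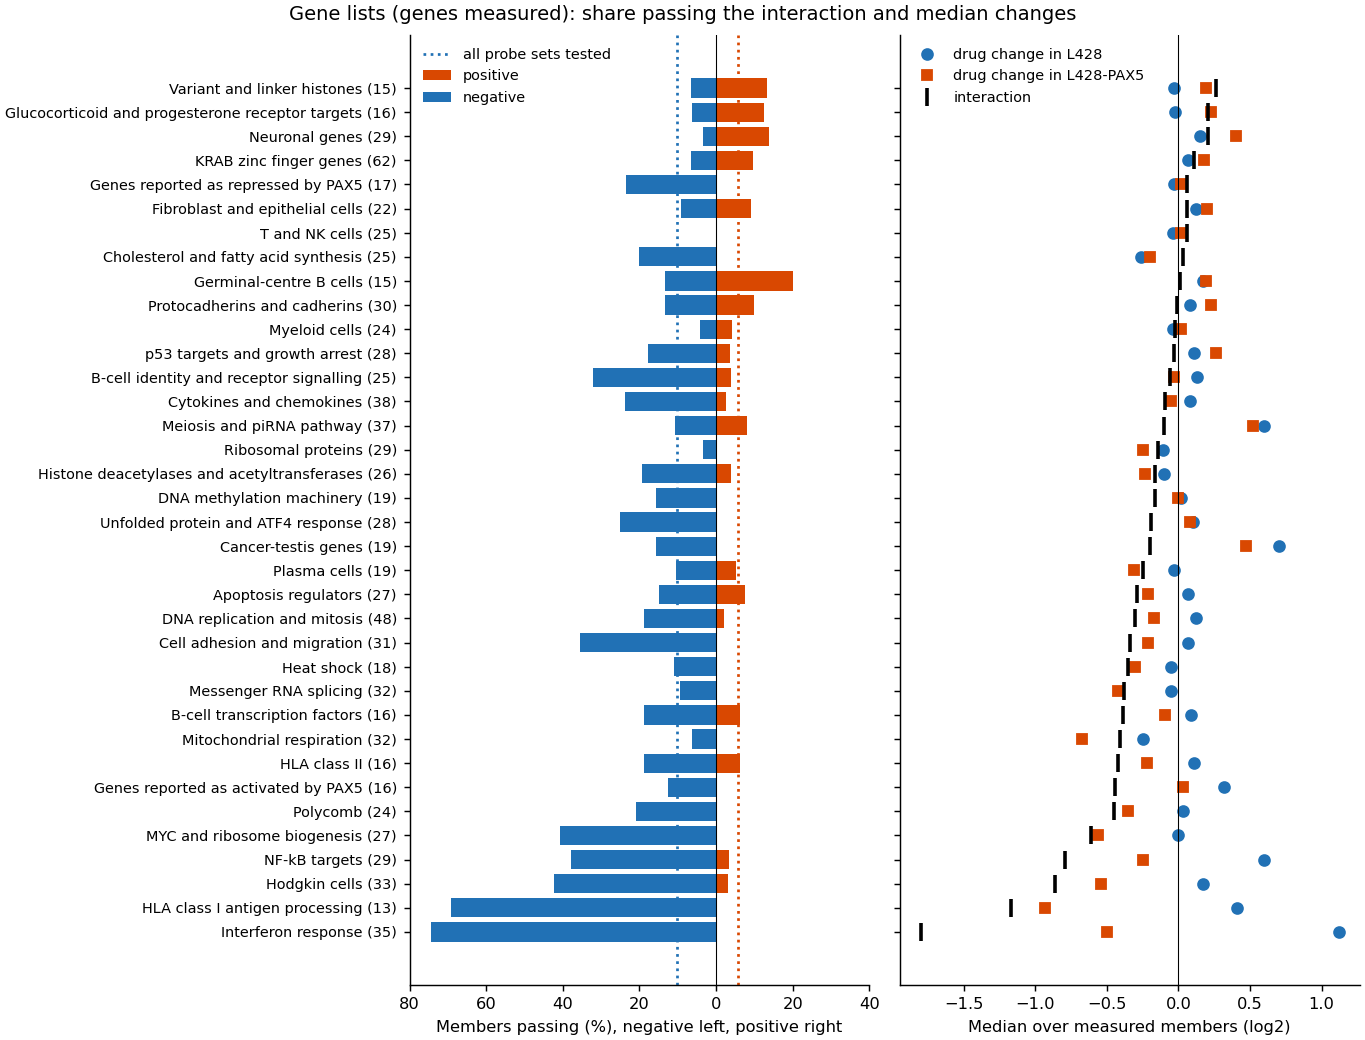
Left, share of the measured members of 36 gene lists that passed the interaction (x axis, percent; negative to the left, positive to the right), with the share over all probe sets as dotted lines (10.3% and 5.65%); right, median drug change in each line and median interaction (x axis, log2). The interferon response has the highest share of negative calls, with a median drug change of 1.12 in L428 and -0.50 in L428-PAX5.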

How the data were processed

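Each of 18 arrays gave 33297 probe sets as log2 values that the authors deposited after RMA normalization in Partek, per the submitters' processing notes; RMA scales arrays to each other, so a change in total RNA is not visible, although array medians of the deposited values still ran from 6.52 to 6.70. The genome build and program versions are not given in the sources used here. Probe sets were named from the platform annotation: 19460 had 1 symbol, 1754 several, and 12083 were not listed. The values were fitted with limma 3.58.1 (R 4.3.3), 1 mean per group over all 18 arrays, with Benjamini-Hochberg adjustment over the 19460 probe sets and a threshold of 0.05. Arrays with the same number in their titles deviated together (correlation of deviations 0.27 to 0.656 over 18 pairs, against -0.52 to 0.165 over 36 others). Deviations from a group mean cancel out, so positive values for same-numbered pairs push the others down. The labels do not say what the numbers stand for. The main fit ignores any pairing by number, and a fit with the number as a block was also made. On simulated data with 19460 probe sets the test recovered 52% of 2-fold and 93% of 4-fold interactions, and 6.45% of its calls were false. The simulated noise was independent between arrays, with the same spread in every group, and only 100 probe sets of each size were changed. The real arrays deviated together by number, differed in spread between groups and gave far more calls. These rates may therefore not hold for the real data.

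Genes named are PAX5, the 12 largest passing interactions in each direction and the 6 largest in each class, all with a highest group mean over 6.62, which is the median of all values, up to 3 passing members per direction in each of 36 gene lists, and a set of B-cell and Hodgkin genes taken whatever their values. The brightest probe set stands for a gene in lists. The members, lists and classes were chosen with earlier results of these data known. Alternatives were the block, the 12 arrays alone, other scalings, filters and weights, a 2-fold minimum and leaving out arrays. Array number limits the precision. Promoters came from RefSeq (GRCh38.p14) and were searched in Python 3.11.15.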

Additional observations from a re-analysis of the deposited data

Results flagged for a closer look

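The drug change differed between the 2 lines, tested as the interaction in limma, for 1100 probe sets in the positive and 2008 in the negative direction, and 81 of these had drug changes that passed in both lines with opposite signs.

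The named genes with the largest such differences were UTS2B (4.31), REXO1L1P (4.23 and 3.58), GPR50 (3.99), SNAI2 (3.53), CRISPLD2 (3.52), ZNF280A (3.36) and ZSCAN5B (3.34) in the positive direction. In the negative direction they were CYP1B1 (-4.41), IL31 (-3.76), IFI44L (-3.54), AVPR1A (-3.47), OAS2 (-3.39), APOL6 (-3.34), MX1 (-3.31), IDO1 (-3.22), LTA (-3.17, the largest of its 3 probe sets), TRIM22 (-3.16), NDST4 (-3.08) and PARP9 (-3.07). All are log2 interactions.

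Outside the probe sets with 1 symbol, 563 of 13837 with several symbols or none passed the same test when all probe sets were fitted (4.07%), 301 positive and 262 negative. They were not named.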

How the results depend on the processing

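In this section amplified stands for amplified positive alone, and lost and reversed stand for lost negative and reversed negative alone. Paired counts of gained are positive, then negative. With the replicate number as a block the counts were 4953 passing, 1820 positive, 3133 negative, 1465 and 2470 gained, 147 amplified, 158 reversed, 1327 synergistic rises, 1929 synergistic falls, 1697 antagonistic, 727 line rises undone and 371 drug rises blunted. Beside the calls given with the results it changed no other call of a named gene. With the block and the 12 arrays alone, chosen after seeing the data, they were 4745, 1706 and 3039, with 139 amplified, 144 reversed, 1893 synergistic falls, 1603 antagonistic and 695 line rises undone. With the 12 arrays alone 49 were reversed and 291 line rises undone, and with all probe sets fitted 49 were reversed. Weighting the arrays, where the estimation stopped early, gave 6266, 2813 and 3453, with 2083 and 2550 gained, 295 amplified, 274 lost, 227 reversed, 1854 rises, 2082 falls, 2330 antagonistic, 764 line rises undone and 453 drug rises blunted. At a minimum of 2-fold they were 1710, 573 and 1137, with 505 and 915 gained, 99 lost, 519 rises, 731 falls, 460 antagonistic, 241 line rises undone and 151 drug rises blunted. The cause was not tested, except that the 2-fold minimum by its construction keeps fewer.

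Leaving out 1 array, or all arrays of 1 number (chosen after seeing the data), gave 512 to 4519 passing, 194 to 1745 positive, 288 to 2774 negative, 165 to 1420 and 232 to 2309 gained, 19 to 129 amplified, 24 to 190 lost, 13 to 105 reversed, 171 to 1270 rises, 158 to 1748 falls, 164 to 1501 antagonistic, 73 to 562 line rises undone and 36 to 267 drug rises blunted.

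Other scalings and filters left 2725 (array medians subtracted) to 3215 (dim probe sets left out) passing. Quantile normalization raised the positive share from 35.4% to 45.1%. Among the 174 named probe sets no interaction that passed changed sign under any alternative run, although a few that did not pass changed sign. Of them, 98 lost their call without number 1, 84 without number 2 and 9 without number 3. TNFRSF8, MSC, LGALS1, SOD2, IFI44, NEFM, DAZL, SSX3 and SATB1 lost it without number 1 and also without number 2. IDO1, NDST4, GPR183, HORMAD1, CCNG2 and probe sets of REXO1L1P lost it without number 1, and EGR1, SLC2A3 and TYMS without number 2.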

Other observations

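Histone genes were taken by name, after their values were seen. Of 60 measured genes with an H1, H2AC, H2BC, H3C or H4C symbol, 49 lie on chromosome 6, and the set also holds solitary linker histone genes such as H1-10. Of the 60, 22 passed with a positive interaction and 0 with a negative one, beside 5.65% and 10.3% of all probe sets. Of the 60, 49 lay above 0, with a median interaction of 0.69. Their median drug change was -0.10 in L428 and 0.38 in L428-PAX5, and their median line difference without drugs -0.35. Near-identical copies of these genes share sequence, so single members are uncertain. On chromosome 6 as a whole 102 of 977 genes (10.4%) had a positive interaction, and 20 of the 102 were these histone genes. On chromosome 19, 67 of 1308 (5.12%) had a negative one. Both stand beside the same shares over all probe sets.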
